A study of Mus musculus with 6 samples.

Results

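The genes described here are the amino acid transporter families of the mouse yolk sac: the probe sets whose single gene symbol starts with Slc1a, Slc3a, Slc6a, Slc7a, Slc36a, Slc38a or Slc43a and a digit. Slc38a4 was left out by the rule. The rule found 63 genes with 65 probe sets, of 19938 genes with a single symbol on the array, and 1 probe set stood for each gene, the one with the higher mean over all 6 arrays. Of the 63 genes, 61 encode carriers or their partner chains, and Slc6a19os and Slc7a6os are opposite-strand genes that share a name with a carrier. 48 genes had a mean log2 signal of 4.29 or more, the limit of the rule, and 15 lay below it. Just inside the limit were Slc36a2 at 4.37 and Slc6a7 at 4.39, and just outside were Slc1a7 at 4.28 and Slc7a14 at 4.25.

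Total RNA was taken from single yolk sacs at embryonic day 9.5, 3 labelled wild type (littermates) and 3 labelled as homozygous for a gene-trap allele of Tnrc6a, written GW182gt/gt. Tnrc6a encodes GW182, which links Argonaute and microRNAs to the decay of target mRNAs. The word mixed stands in both genotype labels without explanation, and the labels do not place the trap within the gene. The question put to the arrays here is how far the mRNAs of amino acid carriers differ between the genotypes.

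Amino acids cross membranes on carriers that differ in what they take and in what drives them. Exchangers swap amino acids across the membrane, sodium-coupled carriers concentrate them in the cell, and some proton-coupled carriers help to empty lysosomes. Before the placenta works, the endoderm of the yolk sac takes up maternal protein, digests it in lysosomes and passes amino acids to the embryo, so that both surfaces and the lysosome need carriers. Several members of the Slc6 family carry other small molecules, such as taurine, creatine, betaine and monoamines, and belong here by name.

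Tnrc6a itself checks the labels. It read 8.40, 7.62 and 8.29 in wild types 1 to 3 and 5.33 and 5.2 in mutants 2 and 3, while the library labelled mutant 1 read 7.81, above wild type 2. That level is at odds with the label of this library, which all directions below include unless stated. The difference was −1.99 (SE 0.64) with an exact permutation p of 0.2. Endoderm of the tissue label was present: the endoderm genes Afp and Ttr read 12.56 to 12.71 on every array. High endoderm signals cannot show whether bordering tissue was included. Array medians ran from 5.19 to 5.22; precision is limited by having 3 arrays a genotype. Values are log2 signals per probe set, given in the order 1 to 3 within each genotype, and a probe set's level is not comparable with that of another gene.

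No amino acid transporter gene passed the test between genotypes. limma, fitted over 15252 probe sets with a single symbol, called 0 of the 48 genes after adjustment (threshold 0.05, smallest adjusted p = 0.999) and 0% of all probe sets. At an unadjusted p under 0.05 there were 2 genes, Slc38a6 and Slc7a1, both lower in the mutants, where 3.53% of all probe sets had such a p, 1.21% lower and 2.32% higher. The count was 3 by the methods' t-test (Slc38a6, Slc6a6 and Slc6a3), where the background was 3.85%. It was 6 without the library labelled mutant 1, all lower, in a fit that gave 4.39% of all probe sets, 1.53% lower. It was 4 without mutant 3, in a fit that gave 8.2% of all probe sets. The genotypes did not overlap for 6 genes, 4 lower (Slc38a6, Slc7a1, Slc43a1 and Slc6a9) and 2 higher (Slc6a6 and Slc6a3), against 8.55% of all probe sets, 3.31% lower and 5.24% higher. Of the 48 genes, 22 read higher and 26 lower in the mutants, and the median difference was −0.011, beside 0.0077 over all probe sets. With array weights the median was 0.017. The counts in each direction rest on few genes, and the list as a whole was not tested. A lower signal in a whole tissue cannot tell fewer cells of a type from less RNA per cell.

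**Figure D1:**
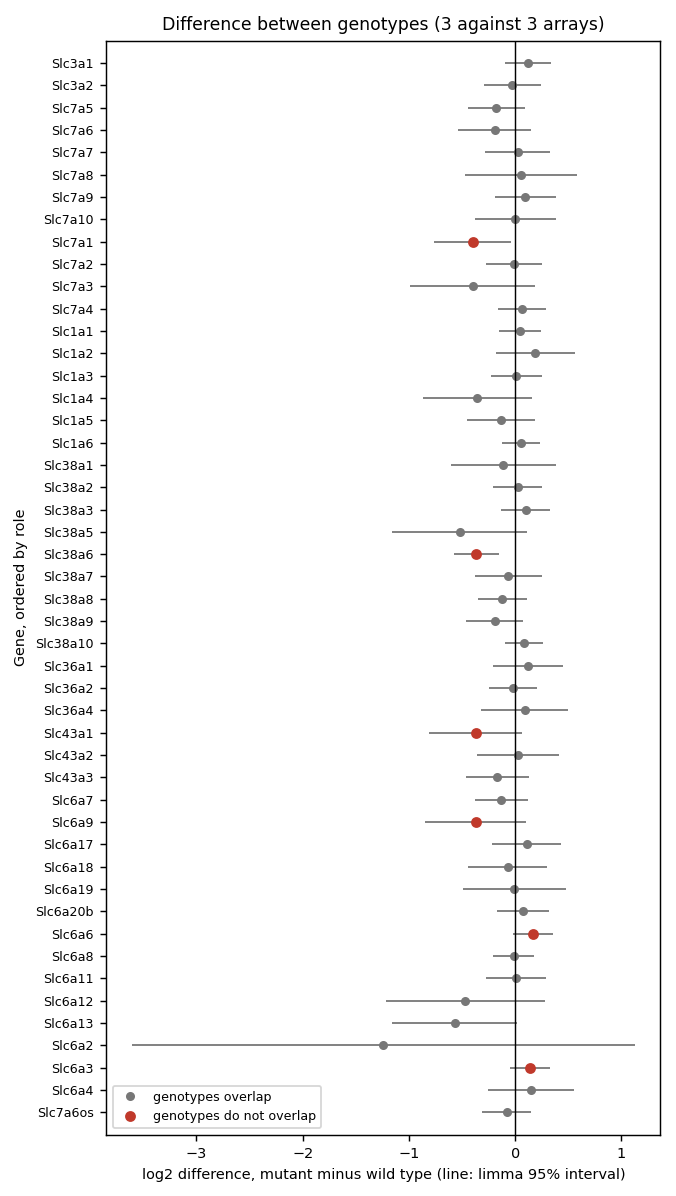
Log2 difference between genotypes (x axis, mutant minus wild type) for the 48 genes at or above the limit (y axis, ordered by role); points are differences of the means of 3 arrays and lines are limma 95% intervals. Red points mark the 6 genes whose genotypes did not overlap, 4 to the left of 0 and 2 to the right; the interval of Slc6a2 runs from −3.61 to 1.13.

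The range over the 3 wild-type arrays was larger than the genotype difference for 36 of 48 genes (75%). Over all probe sets it was larger for 85.2%. The range over all 6 arrays was above 0.5 for 24 genes, where 24.6% of all probe sets had such a range, and above 1 for 7 genes, where 3.28% did. In 8 genes a single array lay more than 0.5 away from the other 5, which 2.62% of all probe sets did. Those were Slc6a2, Slc6a12, Slc7a3 and Slc1a4, high in wild type 2, Slc38a5, Slc43a1 and Slc6a9, low in mutant 2, and Slc6a13, low in mutant 3. Slc6a2, part of each of these counts, reached the limit only through wild type 2.

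**Figure D2:**
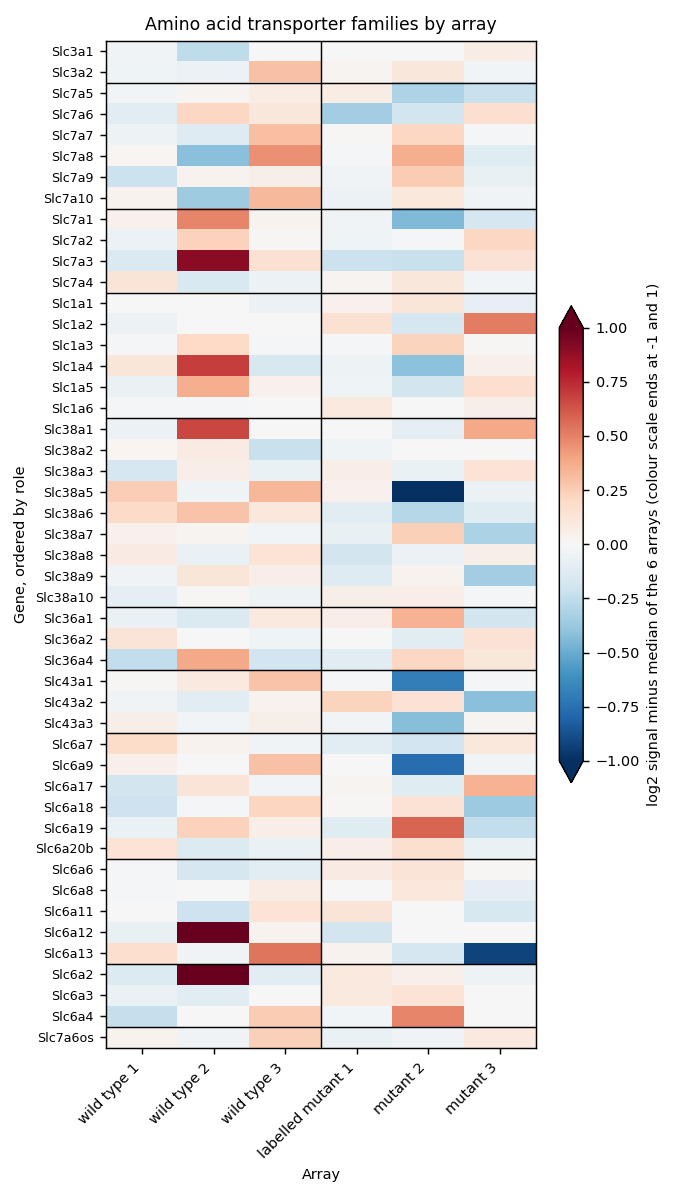
Log2 signal of the 48 genes (rows, ordered by role and parted by lines) on the 6 arrays (columns), as the difference from the median of the 6 arrays; red is above and blue below, and the colour scale ends at −1 and 1. Wild type 2 stands out in Slc6a2, Slc6a12 and Slc7a3 and mutant 2 in Slc38a5, Slc43a1 and Slc6a9.

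Two-part exchangers pair a heavy chain with a light chain that does the transport. Slc3a2 encodes CD98, the heavy chain that brings most of these light chains to the surface. It read 10.98, 10.97 and 11.32 in wild type and 11.05, 11.14 and 11 in the mutants. Wild type 3 was the highest array and the genotypes overlapped fully, with a difference of −0.028 (95% interval −0.29 to 0.24). This difference turned to 0.0080 with quantile normalization. Slc3a1, the rBAT chain of the cystine and dibasic amino acid exchanger, read 4.42, 4.2 and 4.46 in wild type and 4.45, 4.46 and 4.53 in the mutants, close to the limit on every array. Its light chain Slc7a9 was well above the limit, at 9.57, 9.82 and 9.84 in wild type and 9.75, 10.04 and 9.71 in the mutants (difference 0.093, SE 0.12). Mutant 2 was its highest array and the genotypes overlapped.

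The light chains that join Slc3a2 gave 5 genes at or above the limit. Slc7a5, or LAT1, carries large neutral amino acids into growing cells and read 8.68, 8.73 and 8.78 in wild type and 8.78, 8.40 and 8.48 in the mutants. Mutants 2 and 3 lay below every wild type while the library labelled mutant 1 lay at the top (difference −0.18, SE 0.11). Without that library the difference was −0.29 (limma's adjusted p = 1.00). Slc7a8, or LAT2, exchanges neutral amino acids at the basolateral side of epithelia. It read 9.46, 9.02 and 9.90 in wild type and 9.42, 9.80 and 9.32 in the mutants, so that the wild types alone spanned the mutants. Slc7a7, the y+LAT1 chain that exports lysine and arginine from epithelia, read 8.38, 8.30 and 8.73 in wild type and 8.44, 8.64 and 8.42 in the mutants. In Slc7a7 and Slc7a8, wild type 3 was highest, mutant 2 second and wild type 2 lowest. Slc7a6, or y+LAT2, read 7.62, 7.94 and 7.84 in wild type and 7.38, 7.55 and 7.90 in the mutants (difference −0.19, SE 0.15). The range of its mutants held nearly all its values. Slc7a10, the Asc-1 chain for small neutral amino acids, read 4.13 to 4.81 and differed by 0.00090.

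Slc7a11, the xCT light chain that takes up cystine in exchange for glutamate, read 2.77 to 3.18 and lay below the limit on every array. It is a known target of ATF4, the factor of the amino acid response, and its promoter is shown because it holds that factor's motif, in capitals, at 66 and 47 bases before the annotated start. The RefSeq sequence (GRCm38.p6) is that of the 250 bases before the start, at chr3:50443614-50443863 on the minus strand.
Slc7a11: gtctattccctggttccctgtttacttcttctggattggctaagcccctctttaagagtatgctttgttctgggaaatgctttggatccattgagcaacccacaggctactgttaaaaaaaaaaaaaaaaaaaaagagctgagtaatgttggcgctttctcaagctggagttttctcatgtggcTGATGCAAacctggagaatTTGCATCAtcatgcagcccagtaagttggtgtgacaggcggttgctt
The motif searched was TGATGNAA on both strands, in the 250 bases before each start. It was present in 3.45% of 32851 mouse promoters and in 4 of 65 promoters (6.15%) of the 46 members in the table. Those 4 belong to 3 genes, Slc7a11, Slc7a7 and Slc6a21. Slc7a7 was the only one of these at or above the limit. A match is a description of letters, and the signals of these genes did not separate the genotypes.

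Cationic carriers bring arginine, lysine and ornithine into cells. Slc7a1, or CAT1, is their general form and read 7.14, 7.58 and 7.13 in wild type and 7.06, 6.65 and 6.93 in the mutants. Every mutant lay below every wild type, by as little as 0.07 between the library labelled mutant 1 and wild type 3. Wild type averaged 7.28 ± 0.25 (SD, n = 3) and the mutants 6.88 ± 0.21 (SD, n = 3), 1.32-fold lower (difference −0.40, SE 0.16). Its unadjusted limma p was 0.0331 and its adjusted p 0.999, and the exact permutation test gave 0.1, the smallest p that 3 against 3 arrays allow. The unadjusted p was under 0.05 in 12 of 17 alternatives; the difference was −0.26 without wild type 2 and −0.29 without mutant 2. Slc7a3, or CAT3, read 5.09, 6.14 and 5.39 in wild type and 5.02, 5.01 and 5.38 in the mutants. Wild type 2 stood 0.75 above the next array, and without it the difference of −0.40 became −0.10. Slc7a4, a relative in the same branch, read 4.64 to 4.92. Slc7a2, or CAT2, read 4.56, 4.85 and 4.63 in wild type and 4.58, 4.61 and 4.83 in the mutants, with overlapping genotypes.

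The Slc1 family joins glutamate transporters and the neutral exchangers ASCT1 and ASCT2. Slc1a4, or ASCT1, exchanges alanine, serine and cysteine and read 6.47, 7.04 and 6.19 in wild type and 6.30, 5.94 and 6.40 in the mutants. Its difference of −0.36 (SE 0.22) was −0.12 without wild type 2. Slc1a5, or ASCT2, a route for glutamine, read 6.72, 7.15 and 6.83 in wild type and 6.75, 6.61 and 6.96 in the mutants. In both, wild type 2 was the highest array and mutant 2 the lowest. Among the glutamate transporters, Slc1a3 (GLAST) read 6.20, 6.41 and 6.20 in wild type and 6.19, 6.43 and 6.22 in the mutants, nearly the same values. Slc1a1 (EAAC1) read 5.0, 5.0 and 4.94 in wild type and 5.04, 5.12 and 4.92 in the mutants. Slc1a2 (GLT-1) read 4.49, 4.55 and 4.54 in wild type and 4.70, 4.38 and 5.06 in the mutants, the largest positive difference among the 48 genes at 0.19 (SE 0.16). The difference was 0.017 without mutant 3 and 0.36 without mutant 2.

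Slc38 carriers are sodium-coupled for small neutral amino acids at the surface, with lysosomal relatives. Slc38a6, a less studied member, had the lowest p of the 48 genes and is named here after its values were seen. It read 9.06, 9.15 and 8.97 in wild type and 8.76, 8.58 and 8.74 in the mutants. All mutants lay at least 0.21 below all wild types. Wild type averaged 9.06 ± 0.089 (SD, n = 3) and the mutants 8.69 ± 0.10 (SD, n = 3), 1.29-fold lower (difference −0.37, SE 0.091, 95% interval −0.58 to −0.15). The unadjusted limma p was 0.00426, the adjusted p 0.999 and the exact permutation p 0.1, the smallest possible. Over 17 alternatives the difference ran from −0.41 to −0.31 and the unadjusted p from 0.00271 to 0.0176, with adjusted p from 0.601 to 1.00. The library labelled mutant 1 lay beside mutant 3 in Slc38a6, although it read like a wild type in Tnrc6a.

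Of the 9 tested members of the Slc38 family, 6 read lower and 3 higher in the mutants. Slc38a2, or SNAT2, which cells use to adapt to amino acid supply, read 9.60, 9.66 and 9.36 in wild type and 9.54, 9.58 and 9.58 in the mutants. The mutants lay close together within the wild-type range, and the 95% interval of its difference was −0.21 to 0.25. Slc38a1, or SNAT1, read 7.43, 8.15 and 7.48 in wild type and 7.49, 7.39 and 7.86 in the mutants, with wild type 2 and mutant 3 above the other 4. A second probe set of Slc38a1 was also highest in those libraries, at 6.94 and 6.99, against 5.94 to 6.34 elsewhere. Slc38a4, the gene that the rule leaves out, lies next to Slc38a2 in RefSeq order and was highest in the same libraries, at 9.60 and 9.96. Slc38a3, or SNAT3, read 4.86, 5.10 and 4.96 in wild type and 5.10, 4.96 and 5.17 in the mutants.

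Carriers of the lysosome return the amino acids of digested protein to the cytosol. Slc38a9, which reports lysosomal arginine to mTORC1, read 8.21, 8.37 and 8.31 in wild type and 8.12, 8.28 and 7.90 in the mutants (difference −0.19, SE 0.11). Its second probe set differed by −0.026. Slc38a7, or SNAT7, a lysosomal glutamine exporter, read 9.0, 8.98 and 8.93 in wild type and 8.88, 9.19 and 8.64 in the mutants. Slc36a1, or PAT1, a proton-coupled exporter of small amino acids, read 7.19, 7.11 and 7.35 in wild type and 7.32, 7.60 and 7.07 in the mutants. In Slc38a7 and Slc36a1, mutant 2 was the highest array and mutant 3 the lowest, with the wild types between them. Slc36a4, or PAT4, read 6.21, 6.83 and 6.26 in wild type and 6.34, 6.66 and 6.57 in the mutants.

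3 carriers stood low in 1 mutant library. Slc38a5, Slc43a1 and Slc6a9 were lowest in mutant 2, each by 0.68 or more below the next array. Slc38a5, or SNAT5, carries glutamine, serine and glycine and read 8.66, 8.37 and 8.75 in wild type and 8.46, 7.39 and 8.36 in the mutants. Slc43a1, or LAT3, a facilitated carrier of leucine and other large neutral amino acids, read 8.29, 8.37 and 8.56 in wild type and 8.26, 7.58 and 8.26 in the mutants. Slc6a9, or GlyT1, brings in the glycine that red cell precursors use for haem, and read 8.18, 8.13 and 8.42 in wild type and 8.13, 7.37 and 8.10 in the mutants. The other mutants lay among the wild types or just below the lowest of them. The genotypes of Slc6a9 met at 8.13, so that its lack of overlap rests on less than 0.01. The differences were −0.52 (SE 0.27), −0.37 (SE 0.19) and −0.37 (SE 0.21), and without mutant 2 they were −0.18, −0.15 and −0.12. Over all probe sets, 0.452% lay more than 0.5 below the other 5 arrays in mutant 2. Slc43a3, which lies on chromosome 2 with 1 protein-coding gene between it and Slc43a1, was lowest in mutant 2 as well, at 9.22 against 9.62 to 9.70. It was named after its values were seen.

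Primitive erythroid markers moved with the same array. Of 10 listed, 9 were tested and all 9 had a lower mean in the mutants. Without mutant 2 the differences ran from −0.27 for Alas2 to 0.039 for Klf1, and all but Klf1 stayed lower. The mean of the 9 markers by array, set against the mean of the wild types, ran from −0.066 to 0.052 for wild type. It was −0.76 for mutant 2, −0.13 for mutant 3 and −0.067 for the library labelled mutant 1. Alas2, the first enzyme of haem synthesis in red cells, read 9.34 in mutant 2 and 10.11 to 10.45 elsewhere. Gata1, the erythroid transcription factor, read 7.30 in mutant 2 and 8.12 to 8.50 elsewhere. The globin gene Hbb-y stayed high on every array. It read 13.1, 13.11 and 13.05 in wild type and 12.91, 12.68 and 12.93 in the mutants, without overlap. Hbb-y and Alas2 had an unadjusted limma p under 0.05, where 1.21% of all probe sets were lower at such a p. In 4 of the 9 markers the genotypes did not overlap, beside 3.31% of all probe sets that were lower without overlap. No marker of the list was near background, and their part in the lower signal of the 3 carriers was not tested. Other lists moved as well. Markers of visceral endoderm had their highest mean in mutant 2, at 0.12, and the mesenchyme list stood at 0.27 there. All 8 endothelial markers had a higher mean in the mutants, with a median difference of 0.28 and 3 at an unadjusted limma p under 0.05. Over all probe sets, 2.32% were higher at such a p. The endothelial mean by array was 0.26 for mutant 2 and 0.50 for mutant 3, and −0.14 to 0.22 for the rest. The part of these lists in the carriers was not tested.

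**Figure D3:**
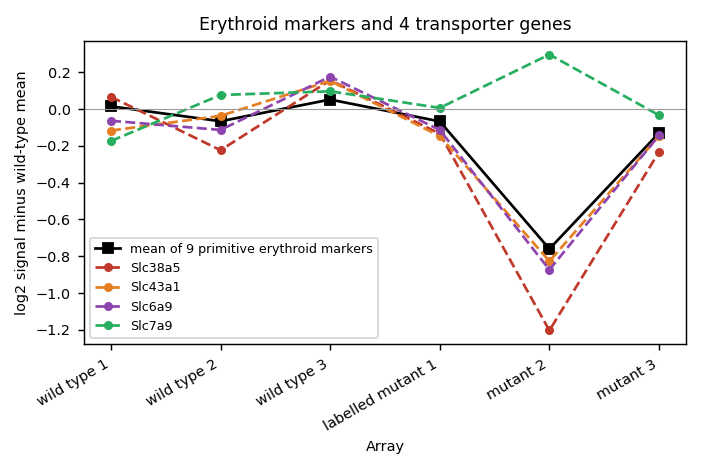
Log2 signal minus the wild-type mean (y axis) on the 6 arrays (x axis). Black squares are the mean of 9 primitive erythroid markers, and coloured points are Slc38a5, Slc43a1, Slc6a9 and the light chain Slc7a9. The cell type that expresses each carrier was not tested. The erythroid mean reads −0.76 in mutant 2, where Slc38a5, Slc43a1 and Slc6a9 are also lowest and Slc7a9 is highest; lines join arrays only to guide the eye.

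The promoters of these 3 carriers are shown because they moved together. They are RefSeq sequences of GRCm38.p6, the 250 bases before the most upstream annotated start. Capitals mark CCNCNCCC on either strand, a short form of the CACC-type box that erythroid KLF factors bind, chosen after the values were seen. Slc38a5 lies at chrX:8271131-8271380, Slc43a1 at chr2:84840073-84840322 and Slc6a9 at chr4:117835008-117835257, all on the plus strand.
Slc38a5: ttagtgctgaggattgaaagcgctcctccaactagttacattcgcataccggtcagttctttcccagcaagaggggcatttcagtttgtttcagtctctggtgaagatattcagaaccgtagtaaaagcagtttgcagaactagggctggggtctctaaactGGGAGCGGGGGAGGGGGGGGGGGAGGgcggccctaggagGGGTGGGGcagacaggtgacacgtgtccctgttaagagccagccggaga
Slc43a1: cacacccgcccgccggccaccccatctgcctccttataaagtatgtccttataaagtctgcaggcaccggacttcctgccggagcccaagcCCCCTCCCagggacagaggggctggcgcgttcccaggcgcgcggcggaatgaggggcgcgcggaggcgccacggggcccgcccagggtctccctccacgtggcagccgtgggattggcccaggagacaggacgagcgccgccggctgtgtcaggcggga
Slc6a9: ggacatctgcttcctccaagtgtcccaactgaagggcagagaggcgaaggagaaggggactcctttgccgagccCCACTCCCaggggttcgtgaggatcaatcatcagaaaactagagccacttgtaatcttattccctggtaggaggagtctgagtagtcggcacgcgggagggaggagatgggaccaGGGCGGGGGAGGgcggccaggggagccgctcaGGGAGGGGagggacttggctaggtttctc
All 3 windows hold the letters, in 9, 1 and 4 overlapping or separate matches, but so do 45.9% of all promoters in the table and 42 of the 65 promoters of members (64.6%). The GATA motif, searched as AGATAA or TGATAA on both strands, was in none of the 3 windows shown and in 16.6% of all promoters. Neither count marks a site, and the absence of the letters says nothing beyond these windows.

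Slc43a2, or LAT4, releases large neutral amino acids from epithelia. It read 9.11, 9.03 and 9.18 in wild type and 9.37, 9.29 and 8.73 in the mutants, which lay on both sides of the wild types. Without mutant 3 the difference of 0.027 became 0.23.

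Brush border carriers of the Slc6 family take neutral amino acids up from the outer face of epithelia. Slc6a19, or B0AT1, read 5.53, 5.83 and 5.67 in wild type and 5.48, 6.18 and 5.35 in the mutants, highest in mutant 2 and lowest in mutant 3. Its neighbour on chromosome 13, Slc6a18, or B0AT3, was lowest in mutant 3 too, at 5.80, and read 5.96 to 6.38 elsewhere. It was named after its values were seen. Slc6a20b lay between 6.50 and 6.80 on all arrays. Slc6a14, the broad carrier ATB0+, read 2.33 to 2.71 and was below the limit. Slc6a5, the neuronal glycine carrier GlyT2, read 3.88 to 4.04 and was also below it.

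**Figure D4:**
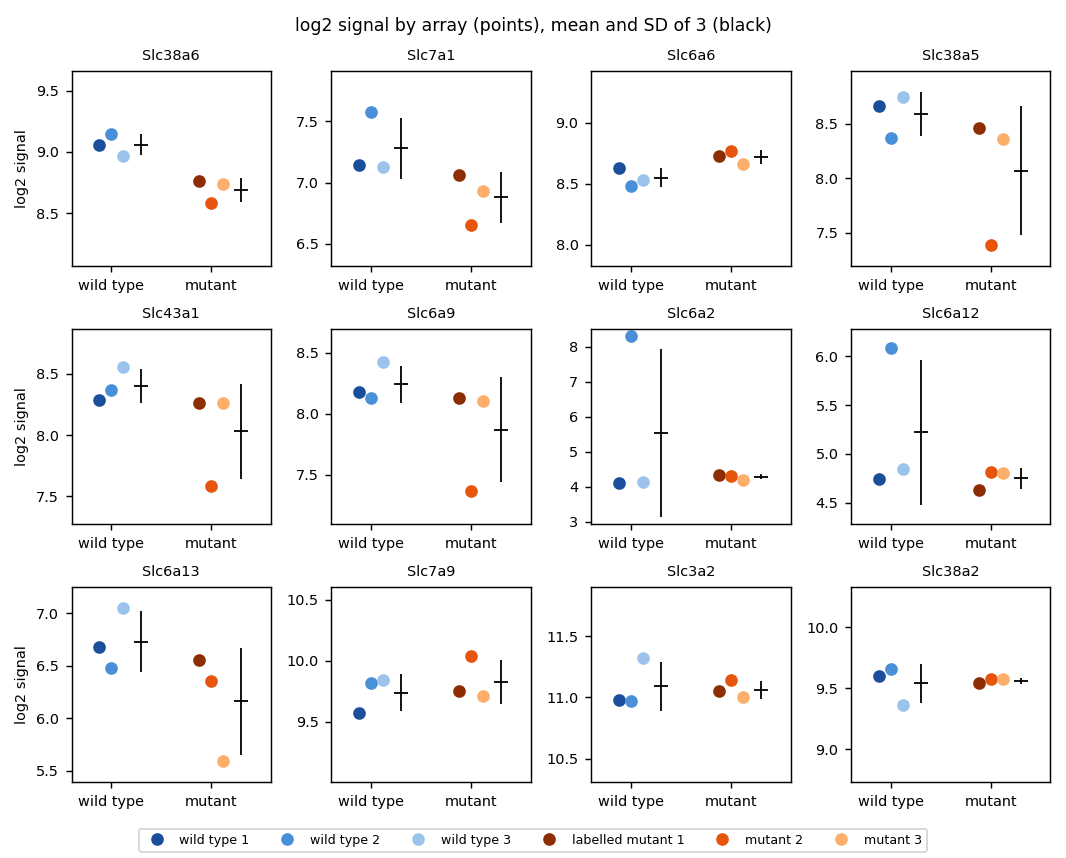
Log2 signal (y axis) of 12 genes in wild type and mutant (x axis), 1 panel a gene; each point is an array, and the black mark and bar are the mean and SD of 3 arrays. The y axes do not start at 0 and differ in place between panels. Slc38a6 and Slc7a1 have no overlap between genotypes, Slc38a5, Slc43a1 and Slc6a9 each have mutant 2 far below, and Slc6a2 has wild type 2 at 8.31 against 4.10 to 4.34.

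Carriers of taurine, creatine and GABA followed no common direction. Slc6a6, the taurine transporter, was 1 of the 2 genes higher in every mutant, at 8.63, 8.48 and 8.53 in wild type and 8.73, 8.77 and 8.66 in the mutants. The gap between the genotypes was 0.03, between wild type 1 and mutant 3. Wild type averaged 8.55 ± 0.077 (SD, n = 3) and the mutants 8.72 ± 0.057 (SD, n = 3), a difference of 0.17 (SE 0.082). The unadjusted limma p was 0.0740 and the exact permutation p 0.1; the methods' t-test gave 0.0367 before and 0.999 after adjustment. Slc6a8, the creatine transporter, read 7.19, 7.20 and 7.28 in wild type and 7.21, 7.31 and 7.11 in the mutants, with a range of 0.19 over all arrays. Slc6a13, or GAT2, carries GABA and taurine and read 6.68, 6.48 and 7.05 in wild type and 6.55, 6.35 and 5.59 in the mutants. Mutant 3 stood 0.76 below the next array, and the difference of −0.57 (SE 0.25) was −0.29 without it. On that array the mean of the hypoxia and glycolysis list was 0.59 above the wild-type mean, and −0.13 to 0.074 on the others. Other lists stood apart on it too: endothelium had its highest mean there, at 0.50, and macrophages and visceral endoderm their lowest, at −0.34 and −0.050. The part of these lists in Slc6a13 was not tested.

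Slc6a12, or BGT1, carries betaine and GABA and lies beside Slc6a13 on chromosome 6. It read 4.74, 6.08 and 4.85 in wild type and 4.63, 4.82 and 4.81 in the mutants. The neighbours did not move together: Slc6a12 stood apart in wild type 2, 1.23 above the next array, and Slc6a13 in mutant 3. The other arrays of Slc6a12 were near the limit, so its gap is given in log2 only. Slc6a2, the noradrenaline transporter, had the widest range of the 48 genes. It read 4.10, 8.31 and 4.13 in wild type and 4.34, 4.29 and 4.19 in the mutants. Wild type 2 lay 3.97 above the next array; the others were at or near the limit, so no fold is given. The difference of −1.24 (SE 1.0) was 0.16 without wild type 2, and without that array the gene lay below the limit. Slc6a4, the serotonin transporter, read 8.0, 8.23 and 8.48 in wild type and 8.2, 8.72 and 8.23 in the mutants. Slc6a3, the dopamine transporter, read 4.45, 4.40 and 4.51 in wild type and 4.61, 4.65 and 4.52 in the mutants. The genotypes were 0.01 apart, with values near the limit and a difference of 0.14 (SE 0.081).

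Some markers of bordering tissue were high in wild type 2, the array where Slc6a2, Slc6a12, Slc7a3 and Slc1a4 stood apart. Of 12 listed genes of trophoblast, decidua and parietal endoderm, 8 were on the array and 3 were above the limit, which Prl8a2 reached only through its high arrays. Over all 8, with no filter and on the same scale as the erythroid list, the mean was 0.66 for wild type 2, 0.43 for mutant 2 and −0.48 to −0.25 for the rest. Prl4a1 read 7.13 in wild type 2 and 3.51 to 5.14 elsewhere, and Thbd, the surface anticoagulant thrombomodulin, 8.52 against 6.13 to 6.72. Prl8a2, a decidual prolactin gene, read 9.11 in mutant 2 and 7.44 in wild type 2, while Slc6a2 was at 4.29 in mutant 2. The trophoblast markers Tpbpa, Ctsq, Psg17, Psg18 and Prl7a2 were at 1.88 to 2.58 on every array, so the mean over all 8 rests on the 3 above the limit. The mesenchyme list had its highest mean in wild type 2 as well, at 0.59. The part of such tissue in the 4 genes was not tested. Over all probe sets, 0.721% stood more than 0.5 above the other arrays in wild type 2.

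Counts by array are a description, with no test. Wild type 2 was the highest array for 13 of the 48 genes, Slc6a2 among them, beside 12.3% of all probe sets. Mutant 3 was the highest for 5, beside 25.3%. Mutant 2 was the highest for 12 and the lowest for 14, beside 17.5% and 18.1%. Wild type 3 was the lowest for 1 gene, Slc38a2, beside 15.2%.

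Genes that answer to amino acid supply showed no call either. Of the amino acid response genes, 28 were tested, with 19 lower and 9 higher in the mutants and a median difference of −0.060; 0 had an unadjusted limma p under 0.05. The mean of this list was −0.098 to 0.084 for wild type, −0.062 for the library labelled mutant 1, −0.11 for mutant 2 and 0.052 for mutant 3. Atf4, the factor that drives the response, read 8.2, 8.37 and 8.17 in wild type and 8.06, 7.86 and 8.15 in the mutants. The genotypes did not overlap, but mutant 3 at 8.15 lay just below wild type 3 at 8.17 (difference −0.22, SE 0.10). Trib3, an ATF4 target, differed by −0.42 (SE 0.19) and Mthfd2, a mitochondrial folate enzyme, by −0.41 (SE 0.20), both with overlapping genotypes. Ppp1r15a differed by −0.29 (SE 0.13), without overlap. Of 18 aminoacyl-tRNA synthetases tested, 16 were lower and 2 higher, with a median of −0.097 and 0 at an unadjusted limma p under 0.05. Nars, for asparagine, read 10.81, 10.85 and 10.88 in wild type and 10.70, 10.53 and 10.76 in the mutants. Tars, Mars1 and Eprs differed by −0.22, −0.20 and −0.13. Their list mean was lowest in mutant 2, at −0.19, beside −0.027 for mutant 3 and −0.080 for the library labelled mutant 1. Over all probe sets, 47.1% were lower.

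Of 30 tested genes of amino acid sensing by mTORC1, 13 were higher and 17 lower, with a median of −0.039. The Castor genes split: Castor2 read 7.58, 7.62 and 7.69 in wild type and 8.06, 8.0 and 7.73 in the mutants (difference 0.30, SE 0.11). Castor1 differed by −0.37 (SE 0.16), with overlapping genotypes. Castor2 and Castor1 were the only genes of this list with an unadjusted limma p under 0.05. Over all probe sets 3.53% had such a p, 2.32% higher and 1.21% lower. Mlst8 and Rragc, subunits of mTORC1 and of its Rag GTPases, differed by 0.17 and −0.13. Of 20 tested carriers of amino acids and peptides from other families, 8 were higher and 12 lower, with a median of −0.0061 and 0 at an unadjusted limma p under 0.05. Slc25a21, a mitochondrial carrier of oxoadipate, differed by −0.44 (SE 0.21) and read 6.01 in mutant 2 against 6.64 to 7.02 elsewhere. Slc25a12, Slc25a29 and Slc17a9 differed by 0.17, 0.21 and −0.15. None of these genes passed the adjusted test (adjusted p = 0.999 in limma).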

How the data were processed

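Deposited values were log2 signals per probe set of 6 Affymetrix Mouse Gene 1.0 ST arrays, processed by the authors; the submitters' processing notes name MAS5. Other steps before deposit were not stated. The log2 scale was read from the values, 0.66 to 13.7. No further normalization was applied. At most 122 of 35557 values were exactly equal, as deposited and with no tolerance, between any 2 arrays. Groups came from the titles; each sample was an individual embryo, per the labels' protocols.

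Genes were named through GEO's platform annotation. The genotype test was lmFit with eBayes (limma 3.58.1 under R 4.3.3; 3.61 prior and 4 residual degrees of freedom) over 15252 single-symbol probe sets with a mean at or above the 30th percentile of such means (4.34), with Benjamini-Hochberg adjustment over all of them. The limit of 4.29 in the membership rule is the 30th percentile over all probe sets with a symbol; the same 48 members pass both. Exact permutation tests were two-sided over 20 assignments, with a smallest p of 0.1. On simulated data drawn for this comparison, 200 of 15252 probe sets were changed. An adjusted p under 0.05 found 27.8% of the log2 changes of 0.5, 87.5% of those of 1 and 98.9% of those of 2. The draws had independent noise, correct labels and no array apart, so these shares may not hold on the deposited arrays. Tnrc6a, at −1.99 there, had a limma adjusted p of 0.999.

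The members and lists were chosen with earlier results of these data known. Values in every array are given for members picked by role, for the 5 largest differences on each side and for the 5 widest ranges; Slc38a6, Slc43a3 and Slc6a18 were added after their values were seen. From each pathway list the 4 genes with the lowest p were named. Alternatives were quantile normalization, median centring, other filters and features, array weights, a replicate block, the methods' t-test, robust variances with a trend, averaging the probe sets of each gene, and leaving out each array; a fit with the probe sets of several symbols was added after the data were seen. The main test did not pair samples by replicate number. Deviations of same-numbered arrays correlated at 0.462, 0.138 and -0.113, and those of the other pairs at -0.465 to 0.248. With 3 arrays a genotype, these values do not settle whether replicate numbers pair the samples. With a replicate block 702 probe sets had an unadjusted limma p under 0.05, against 538 without it. Promoter sequences and gene order came from RefSeq GRCm38.p6.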

Additional observations from a re-analysis of the deposited data

How the results depend on the processing

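No member passed the adjusted threshold in any of 17 alternatives, which include the methods' t-test. The count at an unadjusted p under 0.05, 2 over all arrays, was 3 with a replicate block, 4 with array weights and 3 to 6 when 1 array was left out. In the same fits the share of all probe sets was 3.53% over all arrays, 4.6% with the block, 6.65% with array weights and 2.45% to 8.2% without 1 array. The median difference was -0.068 for the 30 members left by a filter at the 50th percentile, 0.017 with array weights and -0.052 to 0.016 when 1 array was left out. The count of members above the limit was 30 at the 50th percentile and 47 to 49 without 1 array. Of 634 fitted differences of 38 named genes, 593 kept their sign and 41 turned. A further 12 could not be fitted because the gene fell below the limit, 11 of them at the 50th percentile. The other is Slc6a2 without wild type 2, where the plain difference of means turned from -1.24 to 0.16. Those that turned with array weights were Slc38a7 (0.016), Slc3a2 (0.00072), Slc6a18 (0.048), Slc6a19 (0.13), Slc6a8 (0.020) and Slc7a10 (-0.0090), and with quantile normalization Slc3a2 (0.0080) and Slc7a10 (-0.0045). Leaving out 1 array changed the sign of the fitted difference in 18 genes, besides the plain difference of Slc6a2. In some of these genes it did so for more than 1 of the arrays. Their ranges were Slc1a1 -0.00098 to 0.10, Slc1a3 -0.066 to 0.078, Slc36a1 -0.019 to 0.25, Slc36a4 -0.020 to 0.29, Slc38a1 -0.25 to 0.12, Slc38a2 -0.068 to 0.083. Further ranges were Slc38a7 -0.21 to 0.067, Slc3a2 -0.089 to 0.086, Slc43a2 -0.093 to 0.23, Slc6a18 -0.18 to 0.078, Slc6a19 -0.26 to 0.15, Slc6a4 -0.019 to 0.27. The rest were Slc6a8 -0.062 to 0.035, Slc7a10 -0.18 to 0.16, Slc7a2 -0.088 to 0.075, Slc7a7 -0.058 to 0.16, Slc7a8 -0.17 to 0.27, Slc7a9 -0.011 to 0.16. The cause was not tested.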

Other observations

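Among the 15 genes below the limit, Slc6a15, a neutral amino acid carrier known from neurons, was the exception to low and even signals. It read 5.72 in wild type 2 and 2.96 to 3.66 on the other arrays. The gap to the next array was 2.07; the others lay below the limit, so no fold is given. Its mean over all arrays was 3.63, so it was not tested. With Slc6a2, Slc6a12, Slc7a3 and Slc1a4 it makes a further gene of these families that stood apart in the same wild-type library. The other 14 genes below the limit varied by 0.16 to 0.52 over the 6 arrays. Of the opposite-strand genes, Slc7a6os read 7.48 to 7.78 and differed by -0.080, and Slc6a19os read 3.28 to 3.50.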
